A study of Mus musculus with 39 samples.

Results

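The integrated stress response genes studied here are Atf4, its partner factors Atf5 and Ddit3, and a set of genes known to be switched on by ATF4: Trib3, Sesn2, Ppp1r15a, Chac1, Asns, Psat1 and Phgdh. They were picked by name, and each was followed wherever the table of an experiment lists it. Of these 10 genes, 9 were listed in at least 1 of the 5 experiments, out of 11556 genes listed in all. Atf4, Ddit3, Sesn2 and Ppp1r15a were listed in all 12 groups. Atf5 and Trib3 were listed only in hepatocytes, Psat1 and Phgdh only in the 4 monocyte experiments, and Asns only in spinal cord monocytes. Chac1 was not analysed here, nor were the other members in the experiments where they have no row.

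The libraries are RNA sequencing of mouse hepatocytes and of monocytes, in a study of how food intake bears on inflammatory monocytes. Hepatocytes, purified by liver perfusion and centrifugation, came from C57BL/6 mice without food for 4 h (n = 2) or fed (n = 3), and without food for 12 h (n = 3) or fed (n = 2). Sorted bone marrow monocytes came from C57BL/6 mice without food for 17 h (n = 4) or fed (n = 3), from C57BL/6 mice without food for 4 h (n = 4) or fed (n = 4), and from fed CCR2-/- mice (n = 3) or fed C57BL/6 mice (n = 3). Sorted spinal cord monocytes came from C57BL/6 mice with experimental autoimmune encephalomyelitis (EAE, a model in which immunised mice develop inflammation of brain and spinal cord) that went through 24 h cycles of fasting for 4 weeks (n = 4) or were fed (n = 4). Mice were 8 to 12 weeks old, fed mice ate freely, all had water, and bedding was changed when food was taken away. The labels do not say whether the libraries of a group came from separate mice, so p-values measure the spread between libraries, which may be technical.

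Cells start the integrated stress response when kinases that sense missing amino acids, unfolded protein, viral RNA or low heme phosphorylate the translation factor eIF2. Most protein synthesis then slows, while ATF4 protein is made more efficiently from its mRNA through upstream reading frames, so the Atf4 mRNA level alone does not give ATF4 activity. ATF4 raises genes of amino acid import, amino acid synthesis and tRNA charging, and Ppp1r15a, which encodes the phosphatase subunit GADD34, ends the response by taking the phosphate off eIF2. In liver the pathway is known for the response to diets that lack an amino acid and for the hormone FGF21.

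ATF4 binds with C/EBP factors at a composite element whose core reads TGATGNAA, and its targets differ in where this core lies. In RefSeq promoters of GRCm38.p6, which run from 250 bases before to 50 bases after a start, 12 promoters matched all 10 members. The core, searched on both strands, was present for 3 members: Chac1 (first base at position -193 from the start), Asns (position -23) and Trib3 (position 15, after the start). Of 32851 promoters, 3.97% held it. The full ER stress response element ERSE, searched on both strands too and present in 0.119% of all promoters, was found for 0 members. The palindromic cAMP response element TGACGTCA, a search added after the sequences had been read, was found in 1.79% of all promoters and in Ppp1r15a (position -12). A match is a run of letters and not a site shown to be bound. The stretches from 100 bases before to 30 bases after the start are shown for the 3 listed members with a match, with the matched bases in capitals; the Trib3 match is the core read on the opposite strand.
Trib3 promoter, chr2:152344031-152344160, minus strand: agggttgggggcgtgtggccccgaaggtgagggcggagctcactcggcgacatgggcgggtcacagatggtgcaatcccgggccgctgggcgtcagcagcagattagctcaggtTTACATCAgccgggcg
Asns promoter, chr6:7693180-7693309, minus strand: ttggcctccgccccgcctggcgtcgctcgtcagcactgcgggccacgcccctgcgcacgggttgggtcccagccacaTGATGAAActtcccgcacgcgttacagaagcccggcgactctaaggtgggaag
Ppp1r15a promoter, chr7:45526239-45526368, minus strand: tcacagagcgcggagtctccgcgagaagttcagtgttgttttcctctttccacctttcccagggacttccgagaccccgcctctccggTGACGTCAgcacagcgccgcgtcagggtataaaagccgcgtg

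Levels are given in TPM. Scaling for transcript length was read from the values and is not certain, so levels of different genes are not compared. Depth is unknown, and error was taken from the spread between libraries. Tests were limma's on log2(TPM + 1) over all genes of an experiment, and calls rest on adjusted p-values (Benjamini-Hochberg) below 0.05. The pseudocount of 1 TPM understates the change of low genes. In hepatocytes, in marrow at 17 h and in the CCR2-/- experiment, every listed gene averages at least 5 TPM in its highest group, so a gene that is low in 1 group is listed there only if it is higher in another. All 6 hepatocyte markers were listed in hepatocytes and 0 of 6 in monocytes, and all 7 monocyte markers were listed in each monocyte experiment. In these bulk libraries, fewer cells of a type and less RNA per cell cannot be told apart.

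In hepatocytes after 4 h without food, Atf4 mRNA fell and Ppp1r15a rose, while Atf5, Ddit3, Trib3 and Sesn2 did not pass the test. Atf4 (chromosome 15, 80255184 to 80257541, plus strand, GRCm38) stood at 26.5 and 31.4 TPM in fasted hepatocytes, against 48.0, 51.5 and 51.9 TPM in fed hepatocytes. Both fasted libraries lay below all fed ones, in a comparison where 53.7% of all genes did not overlap between groups. The log2 fold change was -0.79 (SE 0.13, limma adjusted p = 0.00212). Ppp1r15a (chromosome 7, 45522916 to 45526268, minus strand) stood at 29.9 and 21.4 TPM in fasted hepatocytes, against 17.8, 13.3 and 13.9 TPM in fed hepatocytes, again without overlap. Its log2 fold change was 0.73 (SE 0.18, limma adjusted p = 0.0135). The Ppp1r15a call was lost without fasted replicate 1 (log2 0.50, adjusted p = 0.058) and when the 4 h libraries were fitted alone (adjusted p = 0.0771). These are 2 of 6 members called, where 37.2% of all 8966 genes were called, so the share of members is near that of all genes. The median over the 6 members was 0.25 on the log2 scale, beside -0.22 for all genes.

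The other 4 members had intervals that reach both sides of 0 at 4 h. Trib3, a pseudokinase that binds ATF4 and AKT, was at 20.8 and 16.8 TPM in fasted hepatocytes, against 18.01, 12.1 and 13.6 TPM in fed hepatocytes (log2 fold change 0.35, 95% interval -0.69 to 1.40). Ddit3, which encodes the stress factor CHOP, was at 12.3 and 4.68 TPM in fasted hepatocytes, against 5.27, 8.50 and 7.94 TPM in fed hepatocytes. Its 2 fasted libraries lie on either side of all fed ones, and the log2 fold change was 0.10 (limma adjusted p = 0.862). Sesn2, whose protein senses leucine and restrains mTORC1, was at 6.16 and 11.1 TPM in fasted hepatocytes, against 6.25, 6.57 and 4.61 TPM in fed hepatocytes. Atf5, a factor related to ATF4 and translated in a like way, was at 37.0 and 45.9 TPM in fasted hepatocytes, against 39.4, 34.0 and 38.2 TPM in fed hepatocytes (log2 fold change 0.15, 95% interval -0.16 to 0.45).

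After 12 h, Atf5 was the member that rose. Atf5 (chromosome 7, 44812256 to 44816658, minus strand) reached 59.2, 61.2 and 63.5 TPM in fasted hepatocytes, against 26.5 and 32.6 TPM in fed hepatocytes. The 3 fasted libraries are close together, and each is well above both fed ones. The log2 fold change was 1.04 (SE 0.14, limma adjusted p = 0.000242), and it stayed between 0.89 and 1.18 whichever library was left out. It was 1 of 6 members called, where 40.3% of all genes were called. Trib3 (chromosome 2, 152337422 to 152344032, minus strand) was at 5.09, 4.46 and 17.2 TPM in fasted hepatocytes, against 2.17 and 3.10 TPM in fed hepatocytes. The groups do not overlap, as for 71.4% of all genes, but 1 fasted library is far above the other two, and the difference did not pass the test (log2 fold change 1.23, SE 0.46, limma adjusted p = 0.0604). Left-out libraries put its log2 value between 0.68, without fasted replicate 3, and 1.55, without fasted replicate 2, where alone it passed (adjusted p = 0.0324), and quantile normalization put it at 0.57 (adjusted p = 0.456). The fed 12 h group averages 2.64 TPM, under the 5 TPM that a gene reaches in its highest group, so Trib3 is listed through the other groups.

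Atf4 no longer differed beyond its spread at 12 h, with 32.8, 38.0 and 42.5 TPM in fasted hepatocytes, against 44.5 and 41.3 TPM in fed hepatocytes. Its interval ran from -0.49 to 0.12 on the log2 scale. Ppp1r15a was at 22.0, 21.1 and 20.5 TPM in fasted hepatocytes, against 28.3 and 24.4 TPM in fed hepatocytes, a difference that did not pass (limma adjusted p = 0.234) although the groups do not overlap. Ddit3 at 12 h was at 6.53, 5.67 and 11.4 TPM in fasted hepatocytes, against 6.68 and 9.02 TPM in fed hepatocytes. Sesn2 was at 8.55, 6.06 and 3.86 TPM in fasted hepatocytes, against 3.74 and 4.13 TPM in fed hepatocytes, and neither gene passed.

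**Figure D1:**
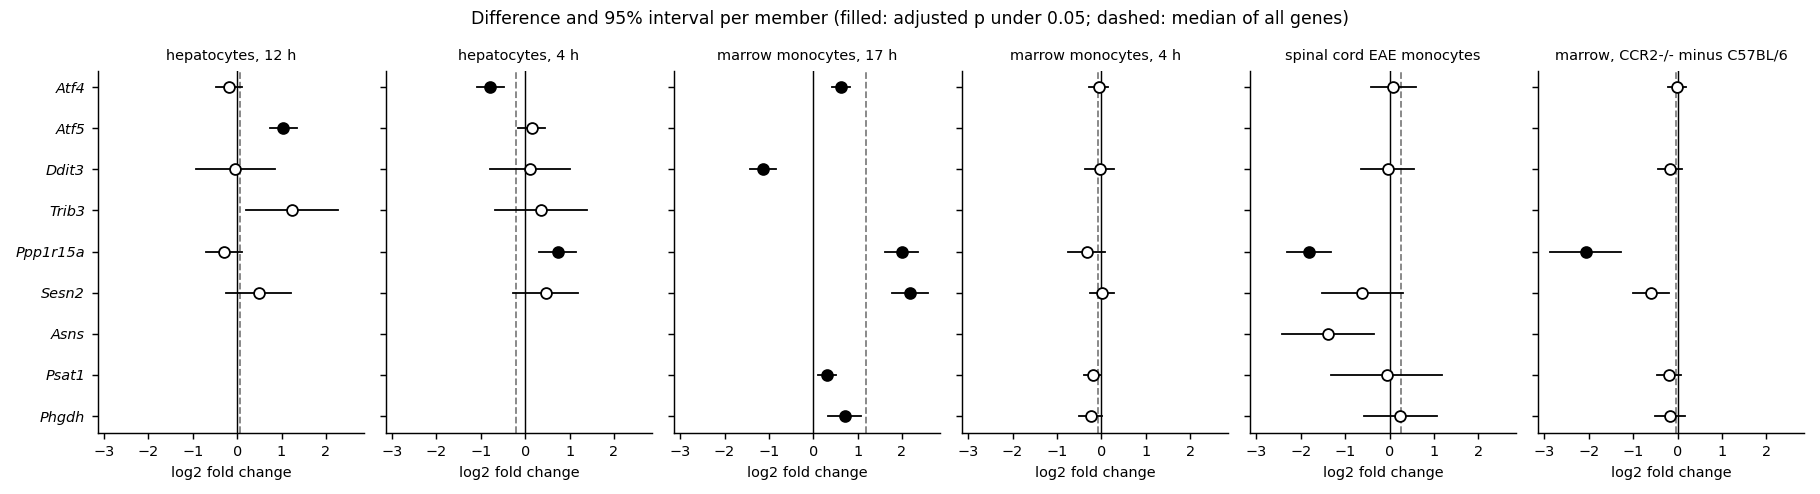
Log2 fold change of each listed member (x axis; each panel is 1 comparison, fasted minus fed or CCR2-/- minus C57BL/6), with its 95% interval as a bar; filled points passed at an adjusted p under 0.05, and the dashed line marks the median of all genes. Atf4 is below 0 in hepatocytes at 4 h, Atf5 above 0 at 12 h, Ppp1r15a below 0 in spinal cord and in CCR2-/-, and in marrow at 17 h the dashed line itself stands at 1.18.

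The difference between fasted and fed hepatocytes was itself another at 12 h than at 4 h for 3 of 6 members, where 30.7% of all genes passed this interaction (23.2% above 0 and 7.43% below). The 12 h difference minus the 4 h difference was 0.89 on the log2 scale for Atf5 (SE 0.19, limma adjusted p = 0.00821), 0.60 for Atf4 (SE 0.19, adjusted p = 0.0397) and -1.03 for Ppp1r15a (SE 0.26, adjusted p = 0.0164). The median over all genes was 0.33, and calls above 0 made up 75.8% of calls as deposited and 55.7% by quantile normalization. The Atf4 call did not hold when libraries were centred on their median (0.40, adjusted p = 0.135) or without any 1 of 8 of the 10 libraries (values from 0.48 to 0.65), and the Ppp1r15a call did not hold without fed 12 h replicate 1 (-0.92, adjusted p = 0.0784). Both sides moved. Among fed hepatocytes, 12 h minus 4 h was -2.09 for Trib3 (SE 0.46, limma adjusted p = 0.00367) and 0.78 for Ppp1r15a (SE 0.18, adjusted p = 0.00502), 2 of 6 members where 59.1% of all genes were called (33.3% higher, 25.8% lower). Higher calls were 56.4% of these as deposited and 43.3% under median centring, where 4 of 6 members passed. Without fed 12 h replicate 1 the Ppp1r15a value was 0.68 (adjusted p = 0.0538). Among fasted hepatocytes it was 0.37 for Atf4 (SE 0.13, adjusted p = 0.0327), 0.56 for Atf5 (SE 0.14, adjusted p = 0.00467) and -1.22 for Trib3 (SE 0.46, adjusted p = 0.0392), 3 of 6 where 69.7% were called (46.7% higher, 23% lower; higher calls were 67% of calls as deposited and 48.8% by quantile normalization). The Trib3 call was lost without any 1 of 4 of these 5 libraries, with values from -1.37 to -0.90. The rise of Atf5 and Atf4 among fasted libraries is close to the median of all genes, 0.45, and under median centring neither passed, with Atf5 at 0.11 and Atf4 at -0.08. Among fasted hepatocytes 2 members were higher and 1 lower as deposited, 0 higher and 3 lower under median centring, and 1 higher and 3 lower by quantile normalization. Sesn2 passed as lower under both (-0.88 and -1.43), as did Ppp1r15a (-0.69 and -0.61), and neither passed as deposited (-0.43 and -0.24).

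Markers of other liver cells moved with these groups. The summed level of 8 Kupffer cell markers was 2133 to 2144 TPM in fasted and 1273 to 1322 TPM in fed hepatocytes at 4 h, and 563 to 569 TPM in fasted and 74.5 to 80.6 TPM in fed hepatocytes at 12 h. The 6 sinusoidal endothelial markers summed to 610 to 639 TPM in fasted and 323 to 342 TPM in fed hepatocytes at 4 h, and to 345 to 371 TPM in fasted and 28.2 to 29.8 TPM in fed hepatocytes at 12 h. The 8 listed immediate early genes, which also rise while cells are isolated, summed to 942 to 1147 TPM in fasted and 703 to 771 TPM in fed hepatocytes at 4 h, and to 516 to 565 TPM in fasted and 1495 to 1536 TPM in fed hepatocytes at 12 h. The Ppp1r15a level lay on the same side of fed hepatocytes as this sum in fasted hepatocytes of each time, but the 2 did not run together across times: Ppp1r15a was lowest in fed hepatocytes at 4 h, and the sum was lowest in fasted hepatocytes at 12 h. The part of these genes in the members' differences was not tested.

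In hepatocytes at 4 h, most listed synthetases and enzymes of the wider pathway fell. Carriers and other stress factors, given below, did not fall as groups. Of 14 listed genes for aminoacyl-tRNA synthetases and the tRNA exporter Xpot, 10 fell and 0 rose, with a median log2 fold change of -0.85 beside -0.22 for all genes. Tars, which charges threonine tRNA, was at 36.3 ± 7.16 TPM in fasted (SD, n = 2) and 80.5 ± 1.26 TPM in fed hepatocytes (SD, n = 3), a log2 fold change of -1.14 (limma adjusted p = 0.000134). All 5 listed enzymes of amino acid and one-carbon metabolism fell, among them Cth, which makes cysteine from cystathionine (log2 -1.11, adjusted p = 5.01e-06). The 15 chaperones and factors of the IRE1 and ATF6 branches of the unfolded protein response were listed for contrast. Of these, 13 fell and 0 rose. Hspa5, the main chaperone of the endoplasmic reticulum, was at 241 ± 20.8 TPM in fasted (SD, n = 2) and 835 ± 46.4 TPM in fed hepatocytes (SD, n = 3). Of 11 genes of eIF2, eIF2B and the eIF2 kinases, 5 fell and 0 rose, among them Eif2s2, the beta subunit of eIF2 (log2 -1.89, adjusted p = 6.69e-05). These directions were the same under median centring and quantile normalization. All genes called at 4 h split 10.4% higher to 26.8% lower, and by quantile normalization the calls were 44.6% higher, against 27.9% as deposited.

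Of 12 other stress factors at 4 h, 4 were higher and 2 lower as deposited, 5 higher and 1 lower under median centring, and 5 higher and 0 lower by quantile normalization. Cebpg, a C/EBP partner of ATF4, rose (log2 0.86, limma adjusted p = 0.0116), as did Cebpb (0.31, adjusted p = 0.0302) and Fgf21 (2.31, adjusted p = 0.00826). Fgf21 stood at 1.98 and 12.2 TPM in the 2 fasted libraries, against 0 to 0.755 TPM in fed hepatocytes, and its log2 value ran from 1.24 without fasted replicate 1 to 3.38 without fasted replicate 2. With the 4 h libraries fitted alone none of Cebpg, Cebpb and Fgf21 passed, and Cebpb also lost its call without fasted replicate 2 (0.13, adjusted p = 0.149) or any 1 of the 3 fed 4 h libraries (0.28 to 0.33). Gdf15, a stress hormone, was at 73.9 ± 11.7 TPM in fasted (SD, n = 2) and 60.7 ± 4.00 TPM in fed hepatocytes (SD, n = 3) and did not pass, nor did Atf3 (adjusted p = 0.295). Slc7a5, the light chain of a leucine carrier, was the 1 of 6 amino acid carriers that rose (1.06, adjusted p = 0.0291), and it no longer passed without fasted replicate 1 (0.53), fed replicate 1 (1.03) or fed replicate 2 (1.01).

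At 12 h, 23.4% of all genes were higher and 16.8% lower, and higher calls were 58.2% of calls as deposited and 49.9% by quantile normalization. The synthetases were lower for 6 of 14 and higher for 0, and lower for 10 of 14 under median centring and 8 of 14 by quantile normalization, with Tars at 112 ± 8.08 TPM in fasted (SD, n = 3) and 204 ± 3.99 TPM in fed hepatocytes (SD, n = 2). Chaperones were lower for 13 of 15 and higher for 0, with Sdf2l1 at 16.4 ± 1.30 TPM in fasted (SD, n = 3) and 127 ± 11.2 TPM in fed hepatocytes (SD, n = 2). Of 5 enzymes 1 was higher and 3 lower, and of 11 eIF2 genes 0 were higher and 3 lower. Carriers were higher for 2 of 6 and lower for 0, a share near that of all genes: Slc1a5, a glutamine carrier, by 2.06 on the log2 scale (limma adjusted p = 0.000288), and Slc3a2, the heavy chain that pairs with Slc7a5, by 0.65 (adjusted p = 0.00134). Fgf21 rose to 58.2 ± 2.74 TPM in fasted (SD, n = 3), against 5.07 ± 1.00 TPM in fed hepatocytes (SD, n = 2). Gdf15 fell to 14.02 ± 0.297 TPM in fasted (SD, n = 3), against 75.3 ± 6.32 TPM in fed hepatocytes (SD, n = 2), and Atf3 fell to 2.96 ± 0.456 TPM in fasted (SD, n = 3), against 21.2 ± 1.74 TPM in fed hepatocytes (SD, n = 2). Only in fed hepatocytes at 12 h does Atf3 average at least 5 TPM, so it is listed through that group. Cebpb did not pass (log2 -0.03). Gpt2, which makes alanine in mitochondria, changed sign between times: 105 ± 6.86 TPM in fasted (SD, n = 2) and 212 ± 8.09 TPM in fed hepatocytes (SD, n = 3) at 4 h, and 440 ± 9.70 TPM in fasted (SD, n = 3) and 221 ± 1.37 TPM in fed hepatocytes (SD, n = 2) at 12 h. Its interaction was 2.00 on the log2 scale (limma adjusted p = 9.81e-07), and that of Gdf15 was -2.62 (adjusted p = 9.57e-06).

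**Figure D2:**
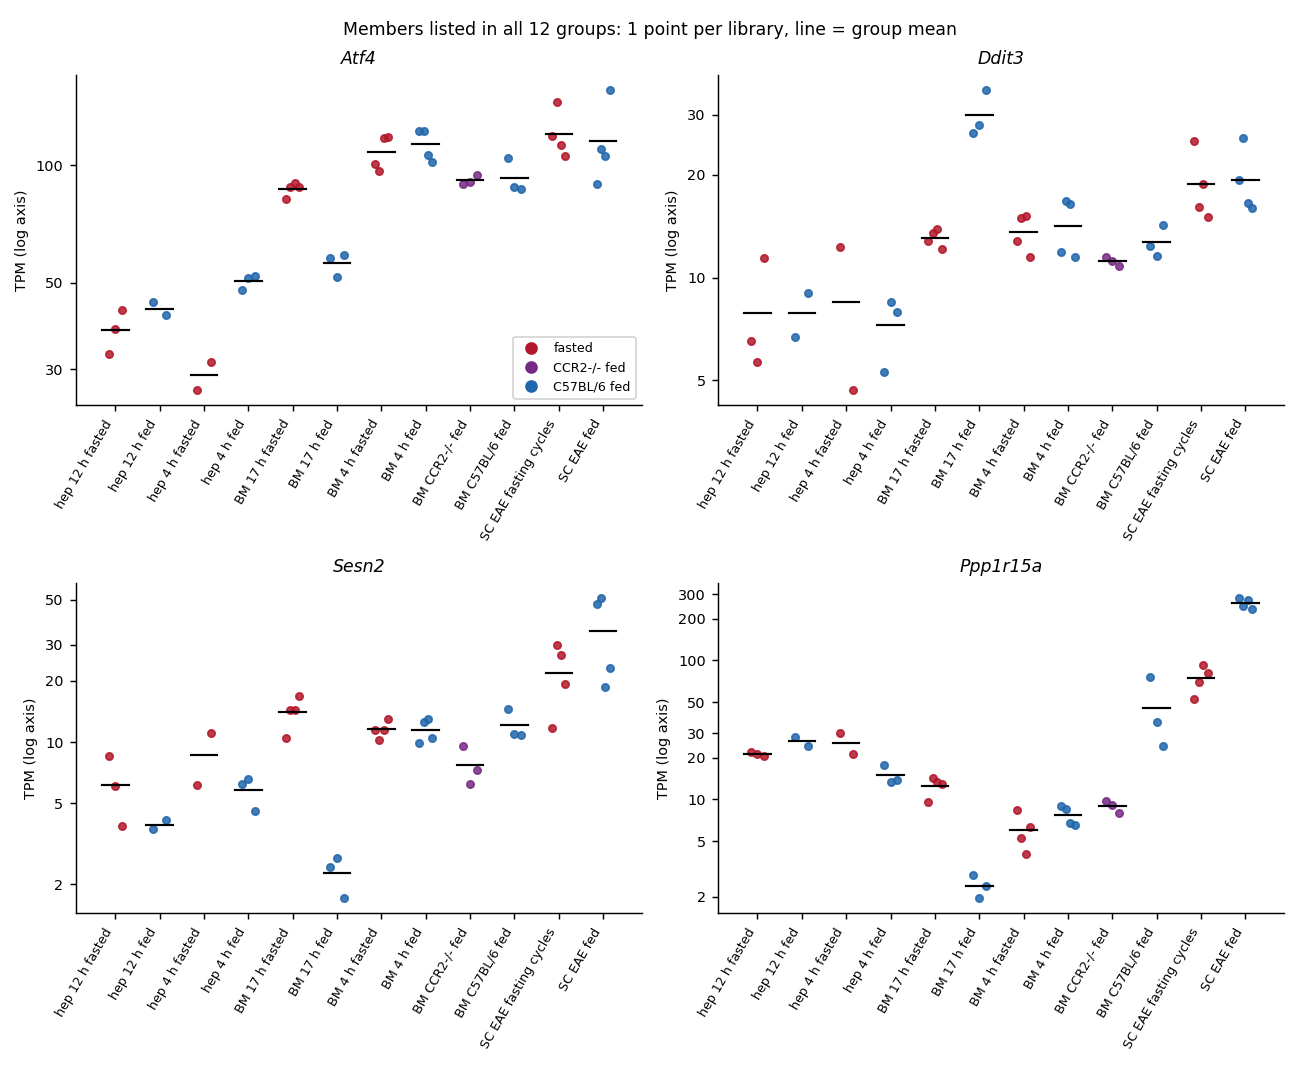
TPM (log axis) of the 4 members listed in all 12 groups, 1 point per library with the group mean as a line (hep, hepatocytes; BM, bone marrow monocytes; SC, spinal cord monocytes). Ddit3 is highest, and Sesn2 and Ppp1r15a lowest, in marrow monocytes of mice fed in the 17 h experiment, and Ppp1r15a is highest in spinal cord monocytes of fed mice.

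In bone marrow monocytes, 4 h without food moved none of the 6 listed members past the test, where 0.424% of all 9428 genes tested (40 genes, and 1468 at an unadjusted p under 0.05) were called. Of those calls 62.5% were higher as deposited and 74.2% under median centring. Atf4 was at 101.1, 96.7, 117.7 and 118 TPM in fasted monocytes, against 122.5, 122.3, 106.7 and 101.9 TPM in fed monocytes. The groups overlap in part, with 2 fasted libraries below and 2 fed libraries above all of the other group, and the 95% interval of the log2 fold change ran from -0.28 to 0.15. Psat1, which carries out the transamination step of serine synthesis, was at 88.2, 95.2, 79.6 and 84.3 TPM in fasted monocytes, against 99.2, 96.4, 92.4 and 109.7 TPM in fed monocytes. Phgdh, the enzyme that opens that route, was at 35.0, 28.6, 29.8 and 39.4 TPM in fasted monocytes, against 37.6, 41.8, 36.1 and 41.3 TPM in fed monocytes. For both genes 3 of 4 fasted libraries lie below every fed library and the fourth lies within their range, and limma's adjusted p-values were 0.319 and 0.341. Ppp1r15a was at 8.32, 5.31, 4.04 and 6.38 TPM in fasted monocytes, against 8.95, 8.54, 6.77 and 6.52 TPM in fed monocytes (adjusted p = 0.400). Ddit3 ranged from 11.5 to 15.1 TPM in fasted and from 11.5 to 16.7 TPM in fed monocytes, and Sesn2 from 10.3 to 12.97 TPM in fasted and from 9.89 to 12.9 TPM in fed monocytes.

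Of the wider pathway at 4 h in marrow, 1 gene passed, 1 of 12 stress factors, where 0.424% of all genes were called. Passing were 0 of 13 eIF2 genes, 0 of 6 carriers, 0 of 14 synthetases, 0 of 6 enzymes and 0 of 15 chaperones. Ddit4, an mTORC1 inhibitor also called REDD1, averaged 31.6 ± 11.1 TPM in fasted monocytes and 7.02 ± 3.91 TPM in fed monocytes (SD, n = 4 each; log2 fold change 2.08, SE 0.34, limma adjusted p = 0.0459). It passed narrowly, and leaving out any 1 of 6 of the 8 libraries lifted its adjusted p to between 0.0707 and 0.16. Cebpb (log2 0.10) and Atf3 (log2 -0.40) did not pass. Immediate early genes summed to 846 to 1046 TPM in fasted and 824 to 1114 TPM in fed monocytes.

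Whether the 4 h response differs between the cell types was tested on the difference itself, over genes listed in both experiments. The fasted minus fed difference in hepatocytes minus that in marrow monocytes was -0.72 for Atf4 (SE 0.17, limma adjusted p = 0.00891) and 1.06 for Ppp1r15a (SE 0.32, adjusted p = 0.0293), and it did not pass for Ddit3 (0.14) or Sesn2 (0.45). These are 2 of 4 members, where 24.7% of all genes passed (7.18% above 0 and 17.6% below; calls above 0 were 29% of calls as deposited and 51% by quantile normalization), and cell type cannot be told apart from experiment and isolation. By quantile normalization the Atf4 value was -0.54 (adjusted p = 0.051). The Ppp1r15a call was lost without any 1 of 6 libraries, with adjusted p-values between 0.0537 and 0.0771.

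After 17 h the fed and fasted marrow libraries differed as wholes. Of all genes, 89.5% were called, 75.4% higher and 14% lower, with a median log2 fold change of 1.18, and the median gene stood at 34.5 to 37.1 TPM in fasted and 15.5 to 17.2 TPM in fed monocytes. Higher calls made up 84.3% of calls as deposited, 56.7% by quantile normalization and 52.9% under median centring. All 6 members were called and none overlapped between groups, where 88.3% of all genes did not overlap. Ddit3 went against it. Ddit3 (chromosome 10, 127290774 to 127296288, plus strand) was at 12.8, 13.5, 13.9 and 12.1 TPM in fasted monocytes, against 26.5, 28.0 and 35.6 TPM in fed monocytes. Each fasted library is below each fed one, and the fold change was -1.13 (SE 0.13, limma adjusted p = 1.26e-05), or -2.31 relative to the median gene.

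Sesn2 and Ppp1r15a were the 2 members that rose by more than the median gene. Sesn2 (chromosome 4, 132492032 to 132510501, minus strand) was at 10.4, 14.4, 14.3 and 16.7 TPM in fasted monocytes, against 2.45, 2.70 and 1.71 TPM in fed monocytes. Ppp1r15a was at 9.54, 14.4, 13.2 and 12.99 TPM in fasted monocytes, against 2.88, 1.94 and 2.38 TPM in fed monocytes. Neither gene overlaps between groups. The log2 fold changes were 2.18 for Sesn2 (SE 0.18, limma adjusted p = 1.25e-06) and 1.99 for Ppp1r15a (SE 0.17, adjusted p = 1.39e-06), or 1.00 and 0.81 relative to the median gene. Both genes are low enough in fed libraries that they are listed through the fasted ones. Immediate early genes summed to 985 to 1398 TPM in fasted and 362 to 408 TPM in fed monocytes; their part in the Ppp1r15a difference was not tested.

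Atf4, Phgdh and Psat1 rose by less than the median gene. Atf4 was at 82.1, 88.2, 90.3 and 87.8 TPM in fasted monocytes, against 57.8, 51.7 and 58.9 TPM in fed monocytes (log2 0.63, SE 0.09, limma adjusted p = 6.96e-05). Phgdh was at 32.2, 35.5, 33.3 and 39.0 TPM in fasted monocytes, against 25.8, 15.4 and 23.4 TPM in fed monocytes (log2 0.70, SE 0.17, adjusted p = 0.00257). Psat1 was at 53.3, 56.1, 49.4 and 51.6 TPM in fasted monocytes, against 41.9, 40.4 and 44.4 TPM in fed monocytes (log2 0.31, SE 0.09, adjusted p = 0.00866). Their direction turned with the scaling. With libraries centred on their median the log2 values were -0.47 for Atf4, -0.39 for Phgdh and -0.78 for Psat1. Each was then called lower (limma adjusted p = 0.00121, 0.04 and 5e-05 in that order). With quantile normalization the values were -0.05, -0.35 and -0.56 in the same order. There Psat1 alone was called lower (limma adjusted p = 0.000339). Under both scalings Ddit3 stayed lower and Sesn2 and Ppp1r15a stayed higher, each past the threshold.

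**Figure D3:**
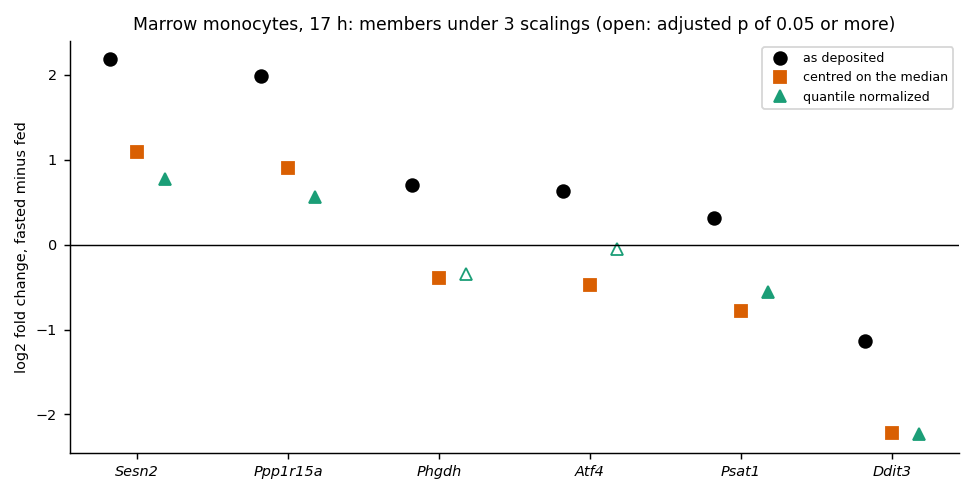
Log2 fold change of the 6 listed members in marrow monocytes after 17 h (fasted minus fed, y axis) on the values as deposited, on libraries centred on their median and on quantile-normalized libraries; open symbols have an adjusted p of 0.05 or more. Sesn2 and Ppp1r15a are above 0 and Ddit3 below 0 in all 3 scalings, while Phgdh, Atf4 and Psat1 cross 0.

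Of the wider pathway at 17 h, synthetases stood above the median gene: 14 of 14 rose on the values as deposited, and 11 or 12 of 14, with 0 lower, under median centring and quantile normalization. Iars, which charges isoleucine tRNA, was at 42.1 ± 6.45 TPM in fasted (SD, n = 4) and 6.78 ± 1.51 TPM in fed monocytes (SD, n = 3). Ddit4 rose here too, to 23.5 ± 11.3 TPM in fasted (SD, n = 4), against 1.18 ± 0.626 TPM in fed monocytes (SD, n = 3). It is low enough in fed libraries that it is listed through the fasted ones. Of all 9134 genes, 75.4% were higher and 14% lower as deposited, and 3737 were higher and 3323 lower under median centring. Chaperones rose for 12 of 15, near that share, and carriers for 5 of 5. Under median centring 10 of 15 chaperones and 4 of 5 carriers were higher, with 3 and 1 lower. Of 6 enzymes 4 rose as deposited, near the share of all genes, while 1 was higher and 3 lower under median centring. Of 12 stress factors, 10 rose and 2 fell as deposited. Under median centring 5 were higher and 5 lower, and both splits are near those of all genes. The 2 that fell as deposited were Nupr1, a stress-induced chromatin protein, at 109 ± 32.4 TPM in fasted (SD, n = 4) and 403 ± 21.4 TPM in fed monocytes (SD, n = 3), and Eif4ebp1, a brake on translation, at 156 ± 12.4 TPM in fasted (SD, n = 4) and 429 ± 27.7 TPM in fed monocytes (SD, n = 3). Cebpb (0.61) and Atf3 (0.81) rose as deposited and were lower under median centring (-0.49 and -0.28). By quantile normalization Cebpb was higher (0.87, limma adjusted p = 0.000457) and Atf3 lower (-0.35, adjusted p = 0.0194).

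The 17 h minus 4 h difference of the marrow differences passed for all 6 members, where 88% of all genes passed (75.1% above 0 and 12.9% below; calls above 0 were 85.3% of calls as deposited and 54.3% under median centring). It was 2.32 on the log2 scale for Ppp1r15a, 2.17 for Sesn2, 0.94 for Phgdh, 0.69 for Atf4, 0.50 for Psat1 and -1.09 for Ddit3, with a median over all genes of 1.27. Cebpb (0.50) and Atf3 (1.22) passed as well. Under median centring Atf4 (-0.46), Phgdh (-0.20), Psat1 (-0.64) and Cebpb (-0.64) were below 0. Of these, Atf4, Psat1 and Cebpb were called below 0 (limma adjusted p = 0.00605, 0.000311 and 0.00772), and Phgdh was not called. By quantile normalization Psat1 was called below 0 (-0.34, limma adjusted p = 0.0255) and Cebpb above 0 (0.73, adjusted p = 0.00724). Time and experiment cannot be told apart.

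In fed mice without the chemokine receptor CCR2, Ppp1r15a was the 1 of 6 members that was lower in marrow monocytes, where 4.38% of all 9210 genes were called (0.641% higher, 3.74% lower). Higher calls were 14.6% of calls as deposited and 34% under median centring. Ccr2 itself stood at 64.7, 62.3 and 60.8 TPM in CCR2-/- monocytes, against 2449, 2622 and 2338 TPM in C57BL/6 monocytes. Ppp1r15a was at 9.68, 9.16 and 7.92 TPM in CCR2-/- monocytes, against 76.3, 36.0 and 24.0 TPM in C57BL/6 monocytes. The groups are apart, as for 33.3% of all genes, and the C57BL/6 libraries spread widely. The log2 fold change was -2.07 (SE 0.35, limma adjusted p = 0.0426). The call was lost without C57BL/6 replicate 2 (adjusted p = 0.084), CCR2-/- replicate 2 (0.163) or CCR2-/- replicate 3 (0.155), with the log2 value between -2.43 and -1.62 whichever library was left out. The 8 listed immediate early genes summed to 863, 879 and 938 TPM in CCR2-/- monocytes, against 4907, 2774 and 2012 TPM in C57BL/6 monocytes. In C57BL/6 the sums ran in the same library order as Ppp1r15a. Of these genes 7 were called lower and 0 higher, and their part was not tested. Set beside these with no test, Ppp1r15a in fed C57BL/6 marrow stood at 6.52 to 8.95 TPM in the 4 h experiment. In the 17 h experiment it stood at 1.94 to 2.88 TPM. The C57BL/6 libraries compared with CCR2-/- were thus the highest of the fed marrow libraries.

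The other 5 members did not pass between CCR2-/- and C57BL/6. Sesn2 came closest, at 9.60, 6.19 and 7.31 TPM in CCR2-/- monocytes, against 14.5, 11.0 and 10.8 TPM in C57BL/6 monocytes (log2 -0.60, SE 0.18, limma adjusted p = 0.0772). It passed without CCR2-/- replicate 1 (-0.75, adjusted p = 0.0296) and with the replicate number as a block (-0.60, adjusted p = 0.0217). Atf4 was at 89.7, 90.9 and 94.7 TPM in CCR2-/- monocytes, against 104.2, 87.8 and 87.0 TPM in C57BL/6 monocytes, with a 95% interval of -0.22 to 0.19. Ddit3 ranged from 10.8 to 11.5 TPM in CCR2-/- and from 11.5 to 14.3 TPM in C57BL/6 monocytes, Psat1 from 77.1 to 82.5 TPM and from 80.5 to 109.4 TPM, and Phgdh from 24.8 to 29.1 TPM and from 24.3 to 35.2 TPM, with CCR2-/- given first for each. Of the wider pathway and the chaperones listed for contrast, 5 genes were lower and 0 higher, where 3.74% of all genes were lower. They were 1 of 6 carriers, 1 of 6 enzymes, 1 of 11 stress factors and 2 of 15 chaperones, with 0 of 14 synthetases and 0 of 13 eIF2 genes. The genes were Slc7a5 (log2 -0.90), Pck2, a mitochondrial enzyme of gluconeogenesis (-0.56), Cebpb (-0.49) and the chaperone-list genes Edem1 (-0.41) and Hyou1 (-0.73). Their limma adjusted p-values ran from 0.0437 to 0.0492. Each lost its call without C57BL/6 replicate 1 or 2 and without CCR2-/- replicate 2 or 3, with adjusted p-values from 0.0873 to 0.178. Under median centring Slc7a5 and Hyou1 kept their calls and Pck2 (adjusted p = 0.0508), Cebpb (0.0559) and Edem1 (0.0549) did not, and with no trend on the mean Hyou1 alone kept its call. Atf3 did not pass (-0.40).

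In spinal cord monocytes of mice with EAE, Ppp1r15a was lower after fasting cycles. It was at 52.8, 70.3, 92.3 and 81.8 TPM in monocytes of fasted mice, against 282, 248, 273 and 233 TPM in monocytes of fed mice. All fasted libraries lie far below all fed ones, where 15.2% of all genes did not overlap between groups. The log2 fold change was -1.81 (SE 0.22, limma adjusted p = 0.00742), between -1.93 and -1.66 whichever library was left out. It was 1 of 7 members called, where 2.43% of all 9079 genes were called (1.58% higher, 0.859% lower). The 9 immediate early genes summed to 6177 to 11025 TPM in monocytes of fasted mice and 17065 to 18588 TPM in monocytes of fed mice, and their part was not tested. The 2 listed dendritic cell markers summed to 75.5 to 112 TPM in fasted and 8.17 to 13.8 TPM in fed libraries. Of these markers 1 was called higher and 1 lower, and their part was not tested either.

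**Figure D4:**
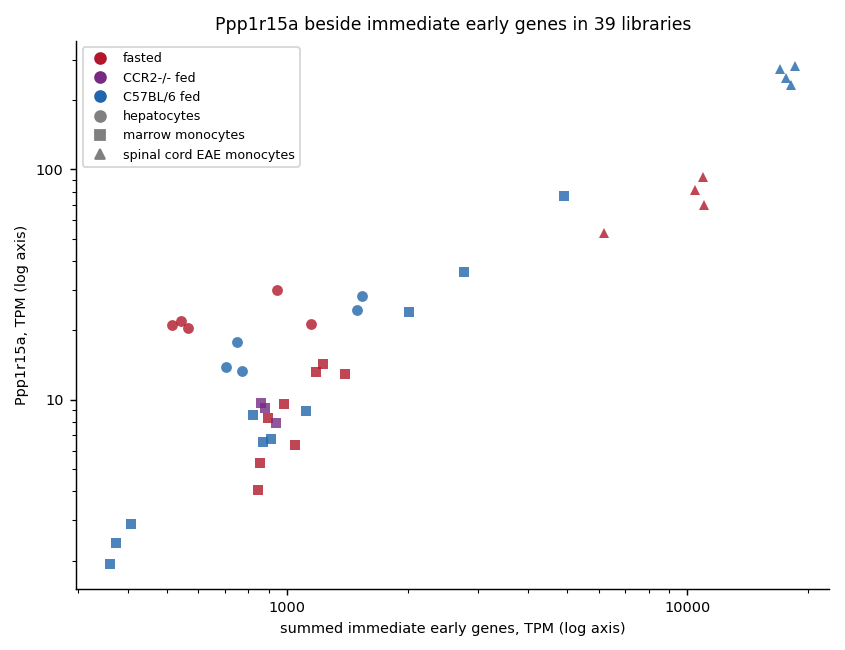
Ppp1r15a (TPM, y axis) beside the summed immediate early genes (TPM, x axis), both on log axes, for all 39 libraries; the sum covers 7 to 9 listed genes depending on the experiment. Marrow monocytes of mice fed in the 17 h experiment lie lowest on both axes and spinal cord monocytes of fed mice highest, while hepatocytes lie above the marrow libraries of a like sum.

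Fed spinal cord libraries 1 and 2 stood apart from the other two: the 7 neutrophil markers summed to 100654 and 107445 TPM in them, against 10698 and 5496 TPM in fed libraries 3 and 4, and to 5592 to 15432 TPM in fasted libraries. The enzyme genes split along the same line. Asns, which makes asparagine (chromosome 6, 7675169 to 7693254, minus strand), was at 8.58, 10.01, 12.5 and 9.90 TPM in monocytes of fasted mice, against 50.5, 51.6, 10.9 and 21.4 TPM in monocytes of fed mice. Psat1 was at 26.5, 19.4, 26.2 and 21.8 TPM in monocytes of fasted mice, against 9.70, 11.3, 58.2 and 51.6 TPM in monocytes of fed mice. Asns is thus highest, and Psat1 lowest, in the 2 fed libraries rich in neutrophil markers. The log2 fold change was -1.38 for Asns (SE 0.46, limma adjusted p = 0.140) and -0.06 for Psat1 (SE 0.56, adjusted p = 0.962).

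Fed libraries 3 and 4 were also taken as the only fed ones, a choice made after seeing the data. It leaves out the 2 fed libraries where Psat1 is lowest and Asns highest, so both values follow from the choice. They were -1.20 on the log2 scale for Psat1 (limma adjusted p = 0.0129) and -0.55 for Asns (adjusted p = 0.256). Ppp1r15a remained lower in that fit (-1.78, adjusted p = 0.00613). Without fed replicate 3 alone, Asns passed (-1.81, adjusted p = 0.0225). Sesn2 was at 11.7, 30.1, 26.6 and 19.2 TPM in monocytes of fasted mice, against 47.7, 51.0, 18.6 and 23.1 TPM in monocytes of fed mice, with the high values again in fed libraries 1 and 2. Phgdh was at 50.02, 23.2, 59.1 and 37.4 TPM in monocytes of fasted mice, against 26.8, 21.1, 51.0 and 44.6 TPM in monocytes of fed mice. Atf4, at 119.3, 145.2, 112.8 and 105.6 TPM in monocytes of fasted mice and 89.4, 110.5, 105.6 and 156.6 TPM in monocytes of fed mice, overlapped fully. Ddit3 ranged from 15.1 to 25.2 TPM in fasted and from 15.9 to 25.6 TPM in fed mice.

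**Figure D5:**
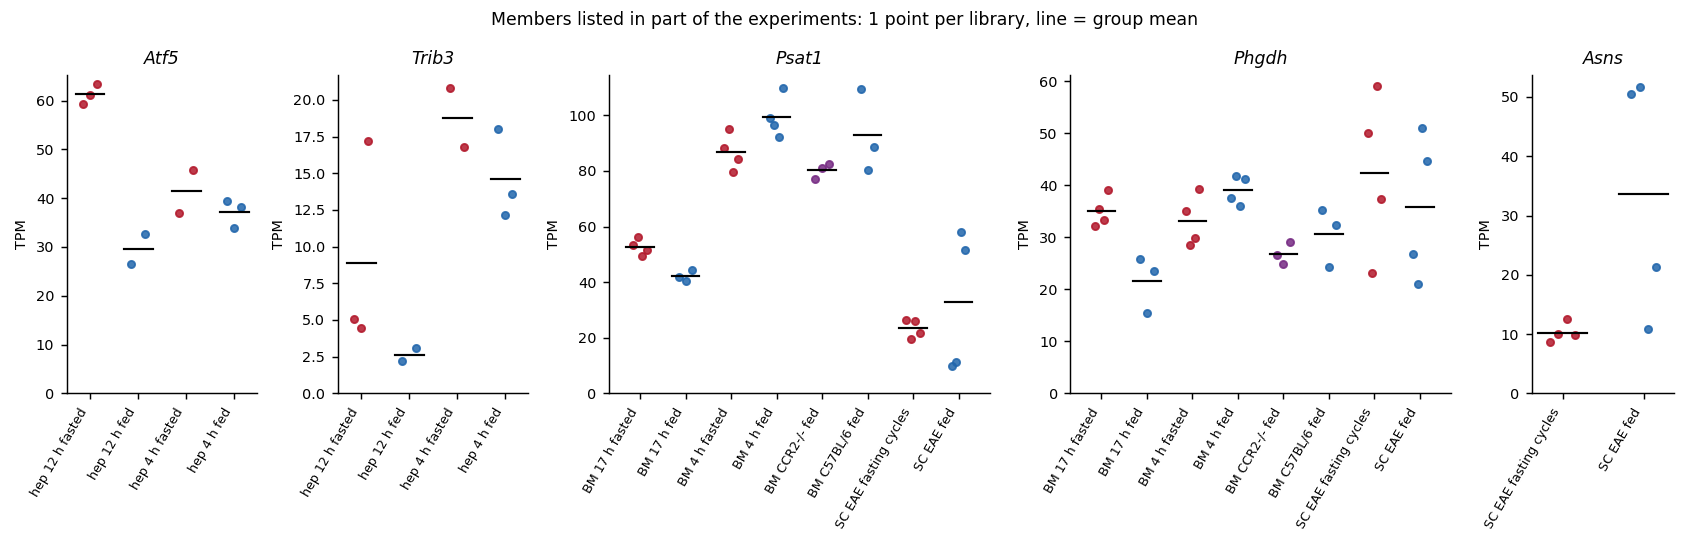
TPM of the members listed in part of the experiments, 1 point per library with the group mean as a line (red fasted, purple CCR2-/-, blue fed C57BL/6; group names as in the plot of all 12 groups). Atf5 is separated at 12 h in hepatocytes, and in spinal cord monocytes of fed mice Psat1 and Asns each fall into a high and a low pair of libraries.

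Of the wider pathway in spinal cord, 1 gene passed, 1 of 6 enzymes, where 2.43% of all genes were called. Passing were 0 of 12 eIF2 genes, 0 of 7 carriers, 0 of 14 synthetases, 0 of 12 stress factors and 0 of 15 chaperones. The call is thus given for that gene alone, which belongs to the serine route of Psat1 and Phgdh. Psph, which takes the phosphate off phosphoserine in the last step, was at 44.1 ± 6.21 TPM in monocytes of fasted mice and 15.8 ± 4.62 TPM in monocytes of fed mice (SD, n = 4 each; log2 fold change 1.45, SE 0.26, limma adjusted p = 0.0255), higher in 4 of 4 fasted libraries than in any fed one. Leaving out any of 6 single libraries lifted its adjusted p to between 0.058 and 0.121. Cebpb (log2 -0.56) and Atf3 (-1.34) did not pass. With fed libraries 3 and 4 alone, the choice made after seeing the data, Psph still passed (1.14), and Atf3 did so too (-2.93, adjusted p = 0.00539).

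Levels across the experiments are set side by side here with no test, since the tables were made separately. Atf4 ran from 121 ± 17.2 TPM in spinal cord monocytes of fasted mice (SD, n = 4) down to 28.9 ± 3.44 TPM in hepatocytes after 4 h without food (SD, n = 2). Its range over libraries overlapped between each neighbour in that order down to fasted marrow at 17 h (87.1 ± 3.50 TPM, SD, n = 4), and then broke before fed marrow of that experiment (56.2 ± 3.86 TPM, SD, n = 3). Ppp1r15a spanned the widest range, from 259 ± 22.3 TPM in spinal cord monocytes of fed mice (SD, n = 4) to 2.40 ± 0.469 TPM in marrow monocytes fed in the 17 h experiment (SD, n = 3). Ddit3 was highest in that same fed marrow group (30.04 ± 4.83 TPM, SD, n = 3), while fed marrow of the 4 h experiment had 14.1 ± 2.82 TPM (SD, n = 4) and fed C57BL/6 marrow of the CCR2-/- experiment 12.7 ± 1.40 TPM (SD, n = 3). Sesn2 was lowest in it (2.28 ± 0.514 TPM, SD, n = 3), beside 11.5 ± 1.497 TPM (SD, n = 4) and 12.1 ± 2.11 TPM (SD, n = 3) in those 2 other fed marrow groups.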

How the data were processed

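The authors quantified reads with kallisto 0.44.0 against GRCm38, per the submitters' processing notes, and deposited 1 table for each of 39 libraries. The deposited values were taken as TPM made by the authors, because library totals lie between 982922 and 994023 and values hold decimals; scaling by library total without transcript length cannot be told apart with certainty. Annotation, strand use and the low-value filter were not given in the sources used here. Between 13 and 15 symbols per table that had become dates were left out.

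Groups follow the labels. Genes with a mean of at least 1 TPM were tested with limma 3.58.1 in R 4.3.3 on log2(TPM + 1), with moderated variances that follow a trend on mean level and are robust to outlying genes. The 10 hepatocyte libraries were fitted together, each monocyte experiment alone, and interactions over the groups they compare. The fits were tested on simulated data. The design allowed for a count test, which this unit cannot take. Medians of lists stand beside the median of all genes.

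The members and lists were chosen with earlier results of these data known. All members are named. Of each pathway list, at most 3 called genes per direction could be named, those of largest change with groups that do not overlap and at least 5 TPM in the higher group, plus Fgf21, Gdf15, Atf3 and Cebpb; some of these are left out, and Gpt2 was followed across times after its values were seen.

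In GENCODE M21, 5 members overlap another gene (Atf5, Ddit3, Ppp1r15a, Psat1 and Sesn2), and 2 entries carry the name Ddit3, so reads of the partner genes cannot be told apart from theirs with certainty. Alternatives were other scalings, pseudocounts, filters and fits, the replicate number as a block, and each library left out. Fed spinal cord libraries 3 and 4 alone were chosen after seeing the data.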

Additional observations from a re-analysis of the deposited data

Results flagged for a closer look

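These differences between fasted and fed cells passed an interaction test between times or cell types on the values as deposited. They are given on the log2 scale. In hepatocytes the 12 h minus 4 h value was 0.60 for Atf4, 0.89 for Atf5, -1.03 for Ppp1r15a, -2.62 for Gdf15 and 2.00 for Gpt2. In bone marrow monocytes the 17 h minus 4 h value was 0.69 for Atf4, -1.09 for Ddit3, 2.17 for Sesn2, 2.32 for Ppp1r15a, 0.50 for Psat1, 0.94 for Phgdh, 1.22 for Atf3 and 0.50 for Cebpb, beside a median of 1.27 for all genes. At 4 h the hepatocyte minus marrow value was -0.72 for Atf4 and 1.06 for Ppp1r15a. Several of these did not hold. The Atf4 call in hepatocytes was lost under median centring and quantile normalization. In marrow Atf4, Psat1 and Phgdh turned below 0 under both scalings. Both cell type calls were lost with the replicate number as a block. Among 32 sets of 4 libraries, each 1 member in 1 group, 0 held a library far from the others. This rule looks for 1 library apart. It could not flag the high and low pairs of fed spinal cord libraries for Asns and Psat1, and smaller groups were not covered.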

How the results depend on the processing

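Depth is unknown, so no limit of detection can be given, and differences of low members are understated. With the 4 h hepatocyte libraries fitted alone, 1744 genes and 1 member were called. Under median centring 4 members were called between fed hepatocytes of 12 h and 4 h. Between CCR2-/- and C57BL/6, 48 genes and 0 members were called with no trend on the mean. In spinal cord, 138 genes were called at a mean of at least 10 TPM, 783 by quantile normalization, 687 under median centring and, with fed libraries 3 and 4 alone, 774 genes and 2 members. By quantile normalization 1 member passed the cell type interaction. Leaving out 1 library at a time, calls ranged from 1603 to 3731 genes and 1 to 3 members for the hepatocyte interaction, from 14 (without fed replicate 2) to 145 genes (without fasted replicate 1) in marrow at 4 h, from 11 (without CCR2-/- replicate 3) to 1060 genes (without CCR2-/- replicate 1) and 0 to 2 members against C57BL/6, and from 22 to 745 genes and 1 to 2 members in spinal cord. The count moved by more than 1.5 times without fed 12 h replicate 1 (1711) or 2 (1603) for the hepatocyte interaction. In marrow at 4 h it did so without fed replicates 2 (14) or 3 (15) or any 1 of fasted replicates 1 (145), 2 (24), 3 (18) and 4 (26). For CCR2-/- it did so without any 1 library: CCR2-/- replicates 1 (1060), 2 (12) and 3 (11), and C57BL/6 replicates 1 (22), 2 (28) and 3 (750). In spinal cord it did so without fasted replicates 1 (64), 2 (29), 3 (22) or 4 (40), or fed replicates 1 (90), 2 (85) or 3 (745). Members called ranged from 1 to 2 in hepatocytes at 4 h, at 12 h, among fed hepatocytes and for the cell type interaction, and from 1 to 3 among fasted hepatocytes. Same-numbered libraries did not deviate together in every pair (correlations from -0.34 to 0.32). Between CCR2-/- and C57BL/6 the correlations were 0.32, -0.08 and 0.32. Whether the numbers pair libraries is therefore not known, and the main fits did not use them. With the replicate number as a block, 1423 genes and 2 members were called between CCR2-/- and C57BL/6, 119 genes in spinal cord, and 993 genes and 0 members for the cell type interaction. Direction turned as follows. In marrow at 17 h, by quantile normalization and then median centring, Atf4 was -0.05 and -0.47, Psat1 -0.56 and -0.78, Phgdh -0.35 and -0.39 and Atf3 -0.35 and -0.28, with Cebpb at -0.49 under centring. In the marrow interaction Atf4 was -0.03 and -0.46, Psat1 -0.34 and -0.64 and Phgdh -0.14 and -0.20, with Cebpb at -0.64 under centring. Among fasted hepatocytes Atf4 was -0.08 under centring. Of members with no call under either setting, 51 values changed sign. By quantile normalization Sesn2 was -0.05 in hepatocytes at 12 h and -0.62 in their interaction (-0.18 under centring), and Cebpb was 0.25 at 12 h. Ddit3 among fed hepatocytes was -0.24 by quantile normalization and -0.14 under centring, and 0.00 under centring in marrow at 4 h. Atf4 was 0.04 and 0.07 for CCR2-/- and -0.12 and -0.14 in spinal cord under quantile normalization and centring. With fed libraries 3 and 4 alone Atf4 was -0.10, Ddit3 0.17 and Phgdh -0.24. Leaving out single libraries, Atf5 ran from 0.00 to 0.30 in hepatocytes at 4 h. Ddit3 ran from -0.51 to 0.71 in hepatocytes at 4 h, -0.31 to 0.15 in hepatocytes at 12 h, -0.75 to 0.47 in the hepatocyte interaction, -0.08 to 0.31 in fed hepatocytes (12 h minus 4 h), -0.64 to 0.59 in fasted hepatocytes (12 h minus 4 h), -0.13 to 0.04 in marrow at 4 h, -0.19 to 0.09 in spinal cord and -0.47 to 0.75 in the cell type interaction. Atf3 ran from -1.96 to 0.41 in hepatocytes at 4 h and -0.70 to 0.00 in CCR2-/- against C57BL/6. Sesn2 ran from -0.36 to 0.40 in the hepatocyte interaction and -0.05 to 0.07 in marrow at 4 h. Cebpb ran from -0.03 to 0.21 in marrow at 4 h. Atf4 ran from -0.06 to 0.07 in CCR2-/- against C57BL/6 and -0.03 to 0.24 in spinal cord. Psat1 ran from -0.47 to 0.35 in spinal cord. The cause was not tested. Of 1037 member values under alternatives, 45 lost a call, 6 of them with a change of sign, and 14 gained one. Further values stayed called with the opposite sign. In marrow at 17 h these were Atf4 and Phgdh under centring and Psat1 under centring and quantile normalization. In the marrow interaction they were Atf4 under centring and Psat1 under both scalings.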
